A study of Mus musculus with 12 samples.

Results

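Motor neurons of the spinal cord drive skeletal muscle and fall into classes by the fibres they reach. Fast alpha motor neurons drive fast-twitch fibres, slow alpha motor neurons drive slow-twitch fibres, and gamma motor neurons set the tension of the stretch receptors inside muscle. Each class is known by a few marker genes, and 8 of them, of 38924 genes in the tables, are described here. They were taken by symbol: Chodl, Mmp9 and Spp1 for fast alpha, Sv2a and Esrrb for slow alpha, and Esrrg, Htr1d and Wnt7a for gamma motor neurons. Fast motor neurons are known as the class that is lost first in several motor neuron diseases.

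RNA-seq came from the whole spinal cord of 12 mice aged 8 weeks, all on a mixed B6J and CAST background. There were 6 wild-type (WT) mice and 6 that carried 1 P278KY allele of Gars, which encodes glycyl-tRNA synthetase (each genotype had 3 females and 3 males). Dominant Gars mutations cause an inherited axonal neuropathy. The stated question was which transcripts differ between WT and mutant adult cord. Mice are numbered as in their labels (WT females 1, 2 and 10, WT males 5, 11 and 12, P278KY females 3, 4 and 9, P278KY males 6, 7 and 8). The labels give no litter, cage or preparation date. Because the tissue is whole cord, fewer cells of a class and less RNA per cell cannot be told apart.

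The libraries held 26982140 to 39339999 expected counts, and all 8 markers were among the 17980 genes with enough counts to test. Levels between mice are given in CPM (reads scaled to a common library total), and levels between genes in TPM, which also allows for transcript length. Genes of neighbouring tissues varied between the libraries. The summed level of 12 skeletal muscle genes was 1125 to 8625 CPM in mice 1 to 4, all females, and 46.2 to 231.8 CPM in the other 8. The summed level of 8 sensory ganglion genes was 73.5, 39 and 30.7 CPM in mice 7, 10 and 11, and 8.70 to 17.1 CPM in the other 9. The ganglion genes Scn10a, Mrgprd and Prdm12 were at 0 in at least 1 library. Defining genes of cell types found in cord were read, which cannot tell cord from other nervous tissue. Those of motor neurons (Chat), interneurons (Gad1, Slc6a5) and microglia (P2ry12) were present in every library. Of 8 Schwann cell genes, which belong to the nerve roots, 2 fell, Pmp2 (-4.04, adjusted p = 1.04e-05) and Pmp22 (-1.001, adjusted p = 0.0353), with summed levels of 1624 to 2782 CPM in WT and 513.4 to 1719 CPM in mutants, and their part in the marker values was not tested. Pmp22 did not pass without any 1 of WT females 1 and 10, WT males 5, 11 and 12, P278KY females 3 and 4 and P278KY male 6 (adjusted p up to 0.0883), nor did the neuronal gene Syt1 without P278KY male 6 or 7 (up to 0.0660). Of 8 ganglion, 8 general neuron and 8 interneuron genes 1 each rose, P2rx3 (1.81, adjusted p = 0.00525), Syt1 (0.16, adjusted p = 0.0239) and Tfap2b (0.45, adjusted p = 0.0146). None of 12 muscle, 7 microglia or 5 endothelium genes passed. Slc18a3, the vesicular acetylcholine transporter gene of the motor neuron list, was not analysed here.

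Promoter sequences of the 2 markers that differed between the genotypes are shown, since both fell. The 250 bases before the annotated RefSeq start on GRCm38.p6 are given, plus strand, with letters that match TATANA on either strand in capitals. Those of Chodl are at chr16:78930698-78930947 and those of the upstream start of Spp1 at chr5:104434861-104435110.

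Chodl: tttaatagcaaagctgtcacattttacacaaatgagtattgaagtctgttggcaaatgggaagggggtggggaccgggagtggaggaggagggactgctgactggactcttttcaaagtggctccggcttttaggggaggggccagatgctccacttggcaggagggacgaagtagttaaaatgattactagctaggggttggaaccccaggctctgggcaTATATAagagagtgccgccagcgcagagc

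Spp1: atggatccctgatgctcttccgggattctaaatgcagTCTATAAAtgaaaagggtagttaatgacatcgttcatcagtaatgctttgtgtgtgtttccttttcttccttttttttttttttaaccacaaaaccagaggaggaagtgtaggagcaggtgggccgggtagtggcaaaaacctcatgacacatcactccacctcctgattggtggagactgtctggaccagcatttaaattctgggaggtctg

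RefSeq windows of 250 bases before to 50 bases from a start were found for 7 of the 8 markers, 13 in all, because some genes have several starts. They were searched on both strands for AAGGTCA (the core bound by estrogen-related receptors, which Esrrb and Esrrg encode), TATANA (TATA box letters) and TAATTA (a homeodomain core). The motifs were chosen after the sequences had been read, and a match describes letters only. TATANA was in 5 of the 13 windows, those of Chodl, both of Spp1 and 2 of Esrrg. Chodl held TATATA beginning 29 bases upstream of its start, and TATANA occurred in 24.7% of all 32851 windows. The Spp1 sequence shown held TATAAA beginning 211 bases upstream, overlapped by TATAGA on the other strand. TAATTA was in the downstream Spp1 window, against 5.29% of all windows, and AAGGTCA was in none of the 13, against 4.72% of all windows. The windows were 36.7% to 76.0% G and C, highest in Wnt7a.

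Of the 3 fast alpha markers, Chodl and Spp1 were lower in P278KY cord, and no slow alpha or gamma marker passed the test. Relative to Chat in the same mouse Chodl was lower without overlap, while Spp1 overlapped between the genotypes. Spp1 is made by alpha motor neurons, so its level is not a measure of the fast class alone. Of the 8 markers 2 passed, both lower (Chodl and Spp1), where 5.32% of all tested genes passed in either direction and 2.95% passed as lower. The CPM of the 2 genotypes did not overlap for the same 2 markers, against 3.73% of all tested genes. By the p-value of the genotype term, Spp1 ranked 3 and Chodl 7 among the 17980 genes, while Wnt7a ranked 17392. The test was the quasi-likelihood test of edgeR with sex as a term, and adjusted p-values (Benjamini-Hochberg) run over all tested genes. All intervals are 95% intervals.

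**Figure D1:**
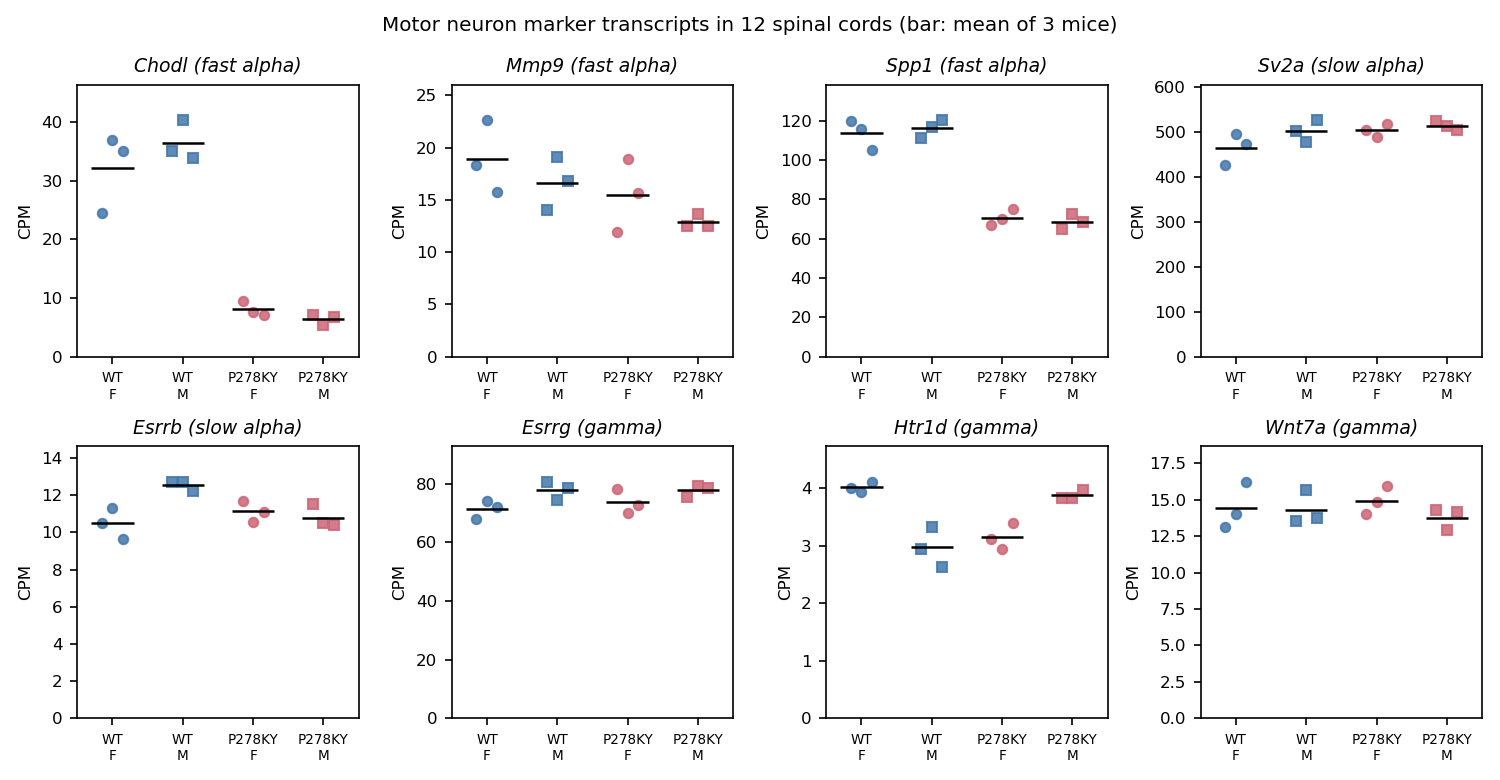
CPM (linear axis from 0) of the 8 markers in each mouse by genotype and sex (F, female; M, male), with points for mice and bars for the mean of 3 mice. The genotypes are apart for Chodl (24.5 to 40.3 against 5.50 to 9.50 CPM) and Spp1 (105.2 to 120.3 against 64.9 to 75.2 CPM) and overlap for the other 6.

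Chodl (chondrolectin, a membrane C-type lectin, ENSMUSG00000022860, protein coding, chromosome 16, 78930948 to 78951733, plus strand) showed the widest separation among the markers. Its lowest, median and highest CPM were 24.5, 35.1 and 40.3 in WT mice and 5.50, 7.14 and 9.50 in P278KY mice. WT female 1, the library with the most muscle RNA, was the lowest WT mouse and still lay above every mutant. The WT mean was 34.3 ± 5.30 CPM (SD, n = 6), and the mutant mean was 7.27 ± 1.31 CPM (SD, n = 6). Chodl fell by 2.24 on the log2 scale (SE 0.14, interval -2.55 to -1.94, adjusted p = 9.87e-06), a 4.74-fold difference. It fell in females, from 32.2 ± 6.70 to 8.10 ± 1.24 CPM (SD, n = 3), and in males, from 36.4 ± 3.43 to 6.44 ± 0.84 CPM. The log2 changes were -1.99 in females and -2.50 in males (adjusted p = 0.000556 and 8.49e-05), and their difference did not pass (-0.51, SE 0.23, adjusted p = 0.9999). Without mice 1 to 4 the change was -2.45, and without mice 7, 10 and 11 it was -2.11, so it was also present without the libraries richest in muscle or ganglion RNA.

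Spp1 (osteopontin, a secreted phosphoprotein made by alpha motor neurons, ENSMUSG00000029304, protein coding, chromosome 5, 104435118 to 104441050, plus strand) moved less and with little spread. Its lowest, median and highest CPM were 105.2, 116.0 and 120.3 in WT and 64.9, 69.4 and 75.2 in P278KY mice. Every mutant lay below every WT mouse in both sexes. It fell by 0.72 on the log2 scale (SE 0.04, interval -0.81 to -0.63, adjusted p = 2.47e-06), a 1.65-fold difference, with -0.68 in females and -0.76 in males (adjusted p = 0.000556 and 0.000178). In females and in males Chodl and Spp1 were the 2 markers that passed, against 0.573% and 1.55% of all tested genes. Spp1 is also made by activated microglia, cells of the meninges and some sensory neurons. None of the 6 tested activated microglia genes of 7 listed passed, with a summed level of 96.1 to 192.4 CPM in WT and 105.0 to 140.8 CPM in mutants. Of 7 genes of fibroblasts and meninges 1 fell, Lum (-0.74, adjusted p = 0.0416, and up to 0.0974 without any 1 of WT female 10, WT males 5 and 12, P278KY females 3, 4 and 9 and P278KY males 6 and 8), with summed levels of 475.3 to 1198 and 402.3 to 551.6 CPM. Their part in the Spp1 values was not tested. Without mice 7, 10 and 11 the Spp1 change was -0.76, and without mice 1 to 4 it was -0.69.

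Mmp9 (matrix metalloproteinase 9, a secreted protease of fast motor neurons and of neutrophils, ENSMUSG00000017737, protein coding, chromosome 2, 164940780 to 164955850, plus strand) did not pass. Its lowest, median and highest CPM were 14.1, 17.5 and 22.6 in WT and 11.95, 13.1 and 18.9 in P278KY mice. In males the 3 mutants (12.5 to 13.6 CPM) lay below the 3 WT mice (14.1 to 19.1 CPM), and in females the groups overlapped, with P278KY female 4 at 18.9 CPM. The share of all tested genes that separate in this way in males was not counted. The log2 difference was -0.33 (SE 0.12, interval -0.58 to -0.07, adjusted p = 0.137), and the interval does not reach the size of the Spp1 or the Chodl change. The summed level of 9 neutrophil and bone marrow genes was 71.1 to 168.3 CPM in WT and 128.6 to 218.4 CPM in mutants, and was highest in P278KY female 4. None of those 9 passed, and their part in the Mmp9 values was not tested.

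Neither slow alpha marker passed the test. Sv2a (a synaptic vesicle protein that marks slow nerve terminals and is made by most neurons, ENSMUSG00000038486, protein coding, chromosome 3, 96181151 to 96195521, plus strand) was at 425.8 to 525.6 CPM in WT and 487.3 to 523.6 CPM in mutants, with WT female 1 lowest. Its log2 difference was 0.07 (SE 0.04, interval -0.01 to 0.16, adjusted p = 0.330). Because Sv2a is made widely, its level in whole cord is not a measure of slow motor neurons alone. Esrrb (estrogen-related receptor beta, a nuclear receptor, ENSMUSG00000021255, protein coding, chromosome 12, 86361117 to 86521628, plus strand) was at 9.66 to 12.7 CPM in WT and 10.4 to 11.7 CPM in mutants. Its log2 difference was -0.07 (SE 0.07, interval -0.22 to 0.08, adjusted p = 0.654). In males the 3 mutants (10.4 to 11.5 CPM) lay below the 3 WT mice (12.2 to 12.7 CPM), with a log2 difference of -0.22 (adjusted p = 0.242), and in females the groups overlapped. As for Mmp9, the share of all tested genes that separate so in males was not counted.

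The gamma markers showed no genotype difference that passed. Esrrg (estrogen-related receptor gamma, a nuclear receptor high in gamma motor neurons and in muscle, ENSMUSG00000026610, protein coding, chromosome 1, 187608791 to 188214885, plus strand) was at 68.1 to 80.8 CPM in WT and 70.1 to 79.1 CPM in mutants. Its log2 difference was 0.02 (SE 0.04, interval -0.06 to 0.10, adjusted p = 0.801). In the muscle-rich mice 1 to 4 Esrrg was at 68.1, 74.3, 78.1 and 70.1 CPM, so mice 1 and 4 were the lowest of their genotypes and mice 2 and 3 were not. Wnt7a (a secreted signalling protein found in gamma motor neurons, ENSMUSG00000030093, protein coding, chromosome 6, 91363981 to 91411363, minus strand) was at 13.1 to 16.3 CPM in WT and 12.9 to 16.0 CPM in mutants. Its log2 difference was -0.004 (SE 0.07, interval -0.15 to 0.14, adjusted p = 0.984). A p-value above the threshold does not show equal levels, but the intervals of Esrrg and Wnt7a leave room for changes of at most 0.15 in size on the log2 scale. These intervals are for whole cord. The part of either level that comes from gamma motor neurons was not measured, so they do not limit a change within those cells.

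Htr1d (a serotonin receptor gene of gamma motor neurons and of some sensory neurons, ENSMUSG00000070687, protein coding, chromosome 4, 136423524 to 136444398, plus strand) was the lowest of the 8, and its order by genotype was opposite in females and males, a difference that did not pass the test. It had 70 to 154 counts a library. In females the 3 WT mice were at 3.93 to 4.12 CPM and the 3 mutants at 2.95 to 3.40 CPM. In males the order was the other way, with WT mice at 2.64 to 3.33 CPM and mutants at 3.83 to 3.98 CPM. The log2 differences were -0.35 (SE 0.13, adjusted p = 0.282) in females and 0.38 (SE 0.13, adjusted p = 0.179) in males. Over both sexes the difference was 0.02 (SE 0.13, interval -0.27 to 0.31, adjusted p = 0.964). The test of the difference between sexes gave 0.73 (SE 0.18, unadjusted p = 0.00155), which did not pass over all genes (adjusted p = 0.464). No gene of the 17980 passed that test in edgeR, where 665 had an unadjusted p under 0.05 and the Wald test of DESeq2 called 61. In the ganglion-rich mice 7, 10 and 11 Htr1d was at 3.83, 4.12 and 3.33 CPM. Mice 10 and 11 were the highest of their groups, and mouse 7, with the most ganglion RNA, was the lowest of its group.

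The deposited tables also give RSEM's mean transcript length of each gene, weighted by how much of each isoform was estimated in that library. It varied little for Chodl, at 2496 to 2527 bases in WT and 2512 to 2535 bases in mutants, and for Spp1, at 1404 to 1414 and 1400 to 1413 bases. For Htr1d it ran from 2053 to 2904 bases. The 3 longest values, in WT males 12 and 5 and P278KY female 3 (2904, 2809 and 2786 bases), came with 2.64, 2.95 and 3.12 CPM. The 3 shortest, in WT male 11, P278KY male 8 and WT female 1 (2053, 2106 and 2155 bases), came with 3.33, 3.98 and 4.0 CPM. The isoform mix of Htr1d as estimated thus differed between mice of 1 group, and its part in the CPM values was not tested.

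**Figure D2:**
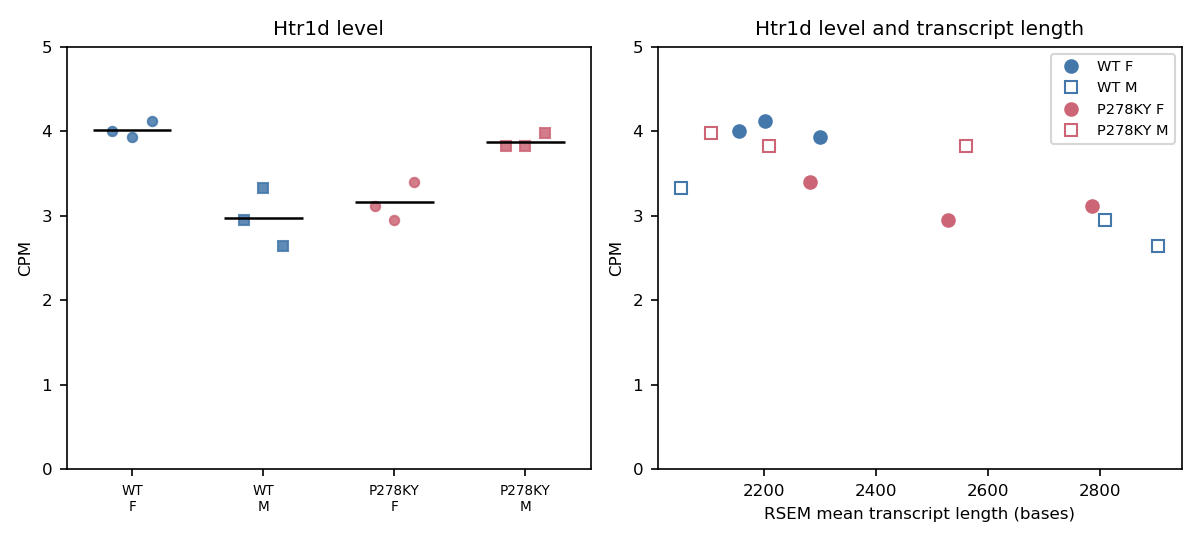
Left, Htr1d CPM in each mouse by genotype and sex (F, female; M, male; bars, means of 3 mice); right, the same CPM against RSEM's mean transcript length in bases. WT females (3.93 to 4.12 CPM) lie above P278KY females (2.95 to 3.40 CPM), and WT males (2.64 to 3.33 CPM) lie below P278KY males (3.83 to 3.98 CPM).

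Per transcript length, Chodl moved down among the markers. In WT mice the mean TPM (± SD, n = 6) was 220.5 ± 15 for Sv2a, 168.2 ± 7.19 for Spp1, 28.3 ± 1.72 for Esrrg, 26.8 ± 4.14 for Chodl, 11.1 ± 1.88 for Mmp9, 9.27 ± 0.89 for Wnt7a, 5.35 ± 0.574 for Esrrb and 2.98 ± 0.864 for Htr1d. The ranges of neighbours in that order overlapped for Esrrg and Chodl and for Mmp9 and Wnt7a, and for no other pair of neighbours. In WT mice Chodl exceeded Mmp9 in 6 of 6 mice, with no overlap of their ranges. In P278KY mice the order was 244.2 ± 8.7 for Sv2a, 108.0 ± 6.37 for Spp1, 30.2 ± 1.47 for Esrrg, 9.44 ± 0.853 for Wnt7a, 9.41 ± 1.76 for Mmp9, 5.96 ± 0.977 for Chodl, 5.40 ± 0.18 for Esrrb and 3.09 ± 0.663 for Htr1d. There Chodl lay below Mmp9 in all 6 mice and its range (4.60 to 7.56 TPM) overlapped that of Esrrb (5.22 to 5.72 TPM). The TPM of Wnt7a and Mmp9 also overlapped.

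Of 7 tested genes of all motor neurons 3 fell and none rose (median log2 change -0.36, against -0.003 over all tested genes). Their summed level was 312.7 to 421.6 CPM in WT and 318.8 to 334.9 CPM in P278KY mice, so WT female 1 lay below the mutant range and the other 5 WT mice above it. Ache, the acetylcholinesterase gene and the most abundant of the 7, was at 174.4 to 211.5 CPM in WT and 182.5 to 201.1 CPM in mutants (-0.05, adjusted p = 0.597). Chat, which makes acetylcholine, fell from 21.9 to 14.9 CPM (log2 change -0.55, SE 0.12, adjusted p = 0.0241). Without any 1 of P278KY males 6, 7 and 8 or WT males 11 and 12, Chat had an adjusted p of 0.0508 to 0.0592. It had 0.0536 with muscle and ganglion covariates and 0.0661 with a term for mice 9 to 12. That term set apart P278KY female 9, WT female 10 and WT males 11 and 12, so it overlaps in part with genotype. Without mice 7, 10 and 11 Chat was at -0.46 (adjusted p = 0.170). That setting has fewer mice, and 253 genes passed in it, against 956 with every mouse. The choline transporter gene Slc5a7 fell by 0.36 on the log2 scale (adjusted p = 0.0196). It had 0.0528 without P278KY female 4 and 0.0550 with the term for mice 9 to 12. Without mice 7, 10 and 11 Slc5a7 was at -0.33 (adjusted p = 0.147). The intermediate filament gene Prph fell by 0.87 (adjusted p = 0.00909). With females only, Chat, Slc5a7 and Prph were at -0.44, -0.28 and -0.95 (adjusted p = 0.558, 0.514 and 0.301). With males only, they were at -0.66, -0.44 and -0.79 (adjusted p = 0.030, 0.034 and 0.119). Mnx1, Isl1 and Isl2, transcription factors of motor neurons, had log2 differences of -0.25, -0.06 and -0.72 and did not pass. Isl2 passed without P278KY male 7, the mouse with the most ganglion RNA (-1.07, adjusted p = 0.0138). Without that mouse Prph was at -0.98. The part of ganglion RNA in the values of the motor neuron list was not tested.

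Each marker was also set against Chat in the same mouse. The log2 ratio of Chodl to Chat was 0.52 to 0.80 in WT and -1.28 to -0.72 in P278KY mice, so the groups did not overlap. CPM does not allow for transcript length, so these ratios compare the genotypes and do not rank the genes. The log2 ratio of Spp1 to Chat overlapped, at 2.10 to 3.01 in WT and 2.02 to 2.54 in mutants, and so did that of Mmp9, at -0.55 to 0.29 and -0.39 to 0.27. Ratios to Chat did not overlap and were higher in mutants for Sv2a (4.14 to 4.84 against 4.92 to 5.32) and Wnt7a (-0.85 to -0.19 against -0.16 to 0.30). Against Slc5a7 in place of Chat, Chodl was again lower without overlap (-1.69 to -1.24 against -3.60 to -3.05). Sv2a and Esrrg were higher without overlap, and Spp1 and Wnt7a overlapped. Chat and Slc5a7 themselves fell (log2 changes of -0.55 and -0.36), so an unchanged gene is higher relative to them in mutants. The share of all tested genes whose ratios do not overlap was not counted. These ratios are descriptions and were not tested.

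**Figure D3:**
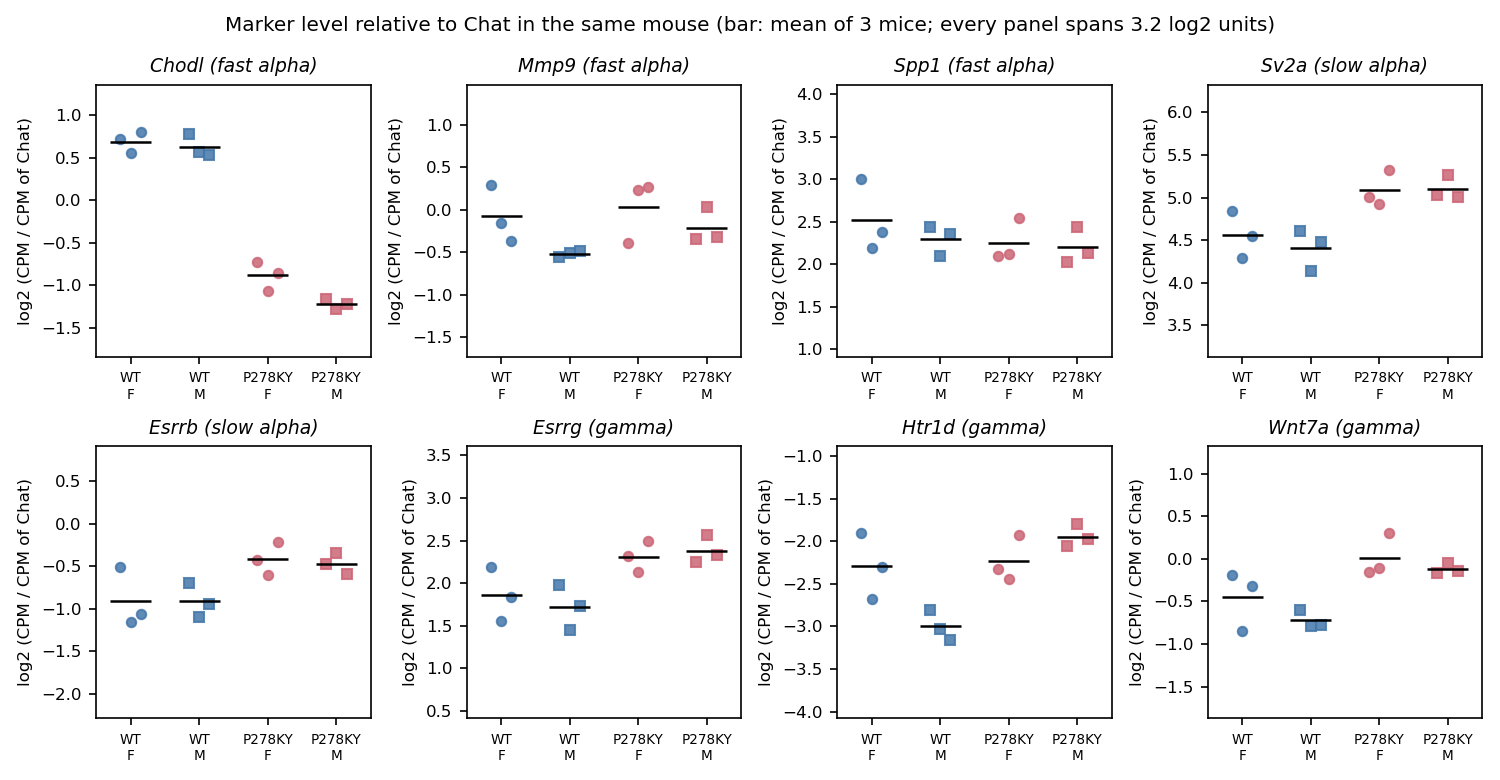
Log2 ratio of each marker's CPM to the CPM of Chat in the same mouse, by genotype and sex (F, female; M, male), with points for mice, bars for means of 3 mice and the same span in every panel. Chodl lies at 0.52 to 0.80 in WT and -1.28 to -0.72 in P278KY mice, while Spp1 and Mmp9 overlap between the genotypes.

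Other genes tied to the same classes were counted in the same way. Of 5 other alpha or fast genes 3 fell and none rose, with a median log2 change of -1.24. Both genes for calcitonin gene-related peptide fell, Calca by 1.97 (SE 0.31, adjusted p = 0.00632) and Calcb by 1.5 in log2 terms (SE 0.11, adjusted p = 9.87e-06). The other was Vipr2, a receptor for vasoactive intestinal peptide (-1.24, SE 0.13, adjusted p = 0.000201). Vipr2 was at 4.23 to 6.17 CPM in WT and 1.87 to 2.82 CPM in mutants, without overlap. Calca is also a gene of sensory neurons, and its change without mice 7, 10 and 11 was -2.27 (adjusted p = 4.25e-05). Without mice 1 to 4 its adjusted p was 0.127, with a log2 change of -1.80. With males only Calca was at -1.50 (adjusted p = 0.250), and with females only Vipr2 was at -1.12 (adjusted p = 0.126). Each of them passed with the other sex only. Rbfox3, a nuclear protein of most neurons that gamma motor neurons lack, had a log2 difference of -0.03 and the potassium channel gene Kcnq5 one of -0.06. Neither of 2 other slow genes passed, Prkcd, a kinase gene (0.07, interval -0.09 to 0.23), and Kcnn3, a calcium-activated potassium channel gene (-0.05, interval -0.23 to 0.13).

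Of 5 other gamma genes 2 fell by small amounts and none rose (median -0.09). Gfra1, a receptor of glial-derived neurotrophic factor, fell from 94.9 to 80.9 CPM (log2 change -0.23, SE 0.04, adjusted p = 0.00456, and 0.0559 without mice 7, 10 and 11). On log2(TPM + 1) values it was at -0.11 (adjusted p = 0.222), on which scale the median over all genes was 0.062. Stxbp6, a syntaxin-binding protein gene, was at -0.14 (SE 0.04, adjusted p = 0.0499). That call was lost without any 1 of 9 libraries (adjusted p up to 0.114), all but WT females 1 and 2 and P278KY female 9. Plch1, a phospholipase gene, was at 0.05 and did not pass. The lists of other genes were drawn up with earlier results of these data known, and such counts support no statement about a whole class.

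**Figure D4:**
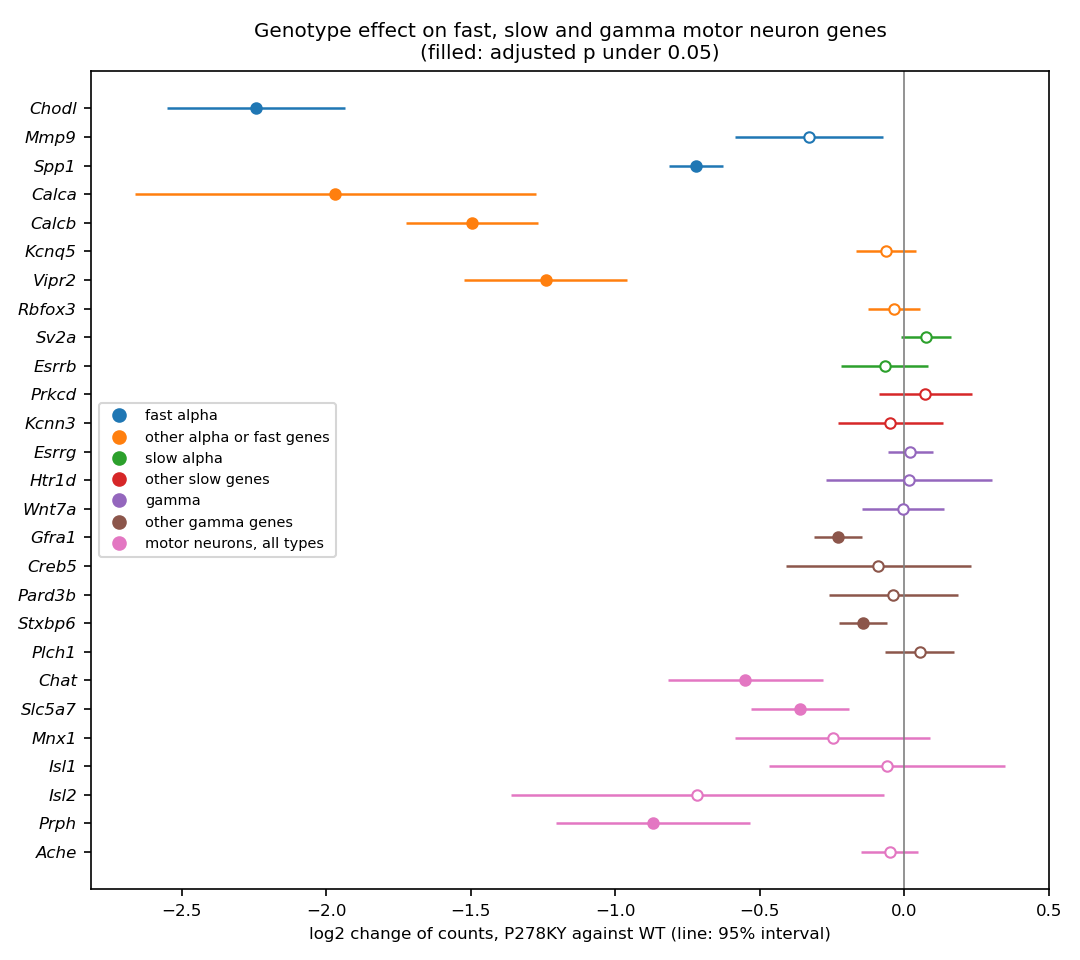
Log2 change of counts in P278KY against WT mice (points; lines, 95% intervals; filled where the adjusted p is under 0.05) for the 8 markers, other genes of each class and genes of all motor neurons. Chodl, Spp1, Calca, Calcb and Vipr2 lie at -0.72 or below. So do Prph (-0.87, filled) and Isl2 (-0.72, not filled) among the genes of all motor neurons. The slow and gamma markers lie between -0.07 and 0.07.

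Relatives and partners of the markers were read from lists as well. Of 6 genes related to Chodl, Sv2a and the estrogen-related receptors, 1 fell, and it was Layn (layilin, a membrane lectin related to Chodl), from 7.70 to 4.05 CPM (-0.93, SE 0.12, adjusted p = 0.00065) without overlap. Sv2b was at -0.13 (adjusted p = 0.0575, and 0.00126 without WT female 1). Of 6 genes of metalloproteinases and their inhibitors none passed. Timp3 had the smallest p-value of these (-0.17, adjusted p = 0.162). Of 5 osteopontin receptor subunits 2 fell, the integrin genes Itgav (-0.21, SE 0.04, adjusted p = 0.00629) and Itgb5 (-0.27, SE 0.07, adjusted p = 0.0383). The Itgb5 call was lost without WT female 10 or any 1 of P278KY females 3 and 9 and P278KY males 6, 7 and 8 (adjusted p up to 0.0884), and on log2(TPM + 1) values Itgav was at -0.11 (adjusted p = 0.399). Without mice 7, 10 and 11 their adjusted p-values were 0.0615 (Itgav) and 0.157 (Itgb5). Of 7 other tested serotonin receptor genes 1 fell, Htr2a (-0.36, SE 0.07, adjusted p = 0.00882, and 0.0999 without mice 7, 10 and 11), an excitatory receptor of motor neurons, at 7.90 to 9.57 CPM in WT and 6.33 to 7.52 CPM in mutants. Of 7 Wnt7a partners 1 rose, the receptor gene Fzd1 (0.30, SE 0.06, adjusted p = 0.0158, and 0.160 without mice 1 to 4 or 0.0534 without mice 7, 10 and 11).

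The genes whose log2 CPM followed a marker most closely over the 12 mice were read from 15498 genes at 1 CPM or more. For Chodl they were Cpt1a, which imports fatty acids into mitochondria (r = 0.985), the annexin gene Anxa6 (r = 0.979) and Palm3 (r = 0.976). After the 4 group means were removed, r was 0.722, 0.465 and 0.846. For Spp1 they were the plastin gene Pls3, Anxa6 and the protease gene Bace2 (r = 0.971, 0.971 and 0.970, and 0.202, 0.139 and 0.649 after group means were removed). All 5 fell in P278KY cord, by 0.34 (Cpt1a), 0.40 (Anxa6), 0.87 (Palm3), 0.18 (Pls3) and 0.48 (Bace2) on the log2 scale. They were picked for following markers that separate the genotypes, so these falls come with the choice and are no separate result. For Mmp9, Sv2a, Esrrb, Esrrg, Htr1d and Wnt7a the closest genes were Nthl1, Tceal5, Tmem129, Ggps1, Gm26530 and Lrrc28, with r of 0.900, 0.951, 0.876, 0.943, 0.908 and 0.928. The mice share genotype, sex and tissue carried along, so these values describe the 12 libraries only.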

How the data were processed

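RNA was taken from whole spinal cord of 12 mice. Per the labels' protocols, the stranded libraries were made from polyadenylated RNA and read for 75 bases from each end. Per the submitters' processing notes, the authors used Bowtie2 2.2.0 and RSEM 1.2.12. Their genome build is not given in the sources used here. Per the file headers, RSEM gave expected counts (reads shared between genes are divided among them), TPM and transcript lengths, all deposited by the authors; FPKM was left aside.

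Expected counts were rounded. Genes kept by edgeR's filterByExpr rule over the 4 groups were tested, and libraries were scaled by TMM, with CPM taken from the scaled totals. The main test was edgeR's robust quasi-likelihood F test with sex and genotype, adjusted by Benjamini-Hochberg over 17980 genes with a threshold of 0.05. Sex-specific effects came from 4 group means. Standard errors were obtained from the log2 changes and their F values. Ratios and likeness used CPM, the latter with a prior count of 2. The genotype test was checked on simulated counts. The stricter filter asked for 1 CPM in 6 libraries. Gene positions were looked up by identifier in GENCODE M21 (GRCm38), where 37607 of 38924 genes were found. Alternatives changed the scaling (DESeq2 size factors), the test (DESeq2, limma voom with sample weights), the scale (limma on log2 TPM), the filter, the rounding, the model terms or the mice included. Named genes followed a rule: the 8 markers, up to 3 passing and 2 other genes of each list by p-value, a pair of genes per cell type list, and the 3 genes most like each marker. Not all are printed, and genes of cell type lists beyond a pair were named after their values were seen. The markers and lists were chosen with earlier results of these data known. Cell type lists covered skeletal muscle, sensory ganglia, Schwann cells, all motor neurons, neurons, interneurons, microglia, activated microglia, neutrophils, meninges and endothelium. Software was R 4.3.3, edgeR 4.0.16, limma 3.58.1, DESeq2 1.42.0 and Python 3.11.15.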

Additional observations from a re-analysis of the deposited data

Results flagged for a closer look

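Htr1d met the criterion for a difference between sexes, since all 3 P278KY females lay below all 3 WT females and all 3 P278KY males lay above all 3 WT males. The log2 difference of the genotype effect, males minus females, was 0.73 (SE 0.18, unadjusted p = 0.00155 in edgeR), and it did not pass over all genes (adjusted p = 0.464). The RSEM transcript length of Htr1d also varied between the mice, and its part in this was not tested. Of the 17980 tested genes, 665 had an unadjusted p under 0.05 for the difference between sexes in edgeR. How many of them separate in opposite orders in females and males was not counted. Of 16 sets of 6 mice (8 markers in 2 genotypes), 0 held a mouse far from the other 5 by Dixon's ratio on the CPM scale. On log2 CPM, a scale tried after seeing the data, 1 of the 16 did, Chodl in WT mice (ratio 0.648, and 0.590 on CPM), where WT female 1 was lowest, and chance marks about 1 in 20.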

How the results depend on the processing

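Chodl, Spp1 and Mmp9 kept their direction and their side of the threshold in all 27 alternatives, with log2 changes of -2.497 to -1.995 for Chodl (adjusted p up to 0.00981), -0.76 to -0.63 for Spp1 (up to 0.00553) and -0.41 to -0.22 for Mmp9 (0.0693 to 0.716). Sv2a passed on log2(TPM + 1) and log2(TPM + 0.1) values (0.15 on both, adjusted p = 0.0469), where the median over all genes was 0.062 and 0.073. Values near 0 turned sign in some settings, none of them past the threshold. On log2(TPM + 1) and log2(TPM + 0.1) values these were Esrrb (0.015 and 0.018), Wnt7a (0.023 and 0.026), Rbfox3 (0.034 and 0.035), Ache (0.023 on both) and Kcnn3 (0.028 and 0.033). With females only they were Esrrb (0.079), Htr1d (-0.35), Wnt7a (0.045) and Plch1 (-0.014), and with males only Esrrg (-0.000904), Kcnq5 (0.0063), Kcnn3 (0.014) and Isl1 (0.12). With a term for mice 9 to 12 they were Htr1d (-0.013) and Wnt7a (0.056), and Wnt7a also turned without mice 7, 10 and 11 (0.10). With 1 mouse left out, Esrrg reached -0.0034 without P278KY female 3, and Isl1 ran from -0.24 to 0.018, above 0 without P278KY female 4 or 9 or P278KY male 8. Htr1d reached -0.064 to -0.015 without P278KY male 6, 7 or 8 or WT male 5 or 12 (-0.015, -0.016, -0.025, -0.033 and -0.064), and its highest value with 1 mouse left out was 0.083. Wnt7a reached 0.0071, 0.019, 0.029 and 0.030 without P278KY female 3, P278KY male 7, WT female 10 and WT male 11, and its lowest was -0.040 without WT female 1.

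Of all tested genes 956 passed for genotype. The count was 1627 with the Wald test of DESeq2, 1467 with voom and sample weights, 1654 and 1668 on log2(TPM + 1) and log2(TPM + 0.1) values (85% higher on both, against 44.5% in the counts), 557 without mice 1, 2, 3 and 4, 253 without mice 7, 10 and 11, 68 with females only and 350 with males only, and 542 to 1385 with 1 mouse left out. In females 103 passed, 455 with DESeq2, 174 with voom, 66 on log2(TPM + 0.1) values, 59 with muscle and ganglion covariates and 32 to 156 with 1 mouse left out. In males 279 passed, 736 with DESeq2, 602 with voom, 72 with a term for mice 9 to 12 and 76 to 431 with 1 mouse left out. Among males only WT mice carry that term, so it overlaps with genotype there. For the interaction 0 passed, 61 with DESeq2, 2 with voom, 2 and 3 on log2(TPM + 1) and log2(TPM + 0.1) values, 1 with no filter, 4 with the stricter filter, 3 with muscle and ganglion covariates and 0 to 42 with 1 mouse left out. The cause of these moves was not tested. No paired analysis was possible because the mouse numbers are not shared between groups. Depth limits Htr1d most, at 70 to 154 counts a library.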
